A study of Mus musculus with 24 samples.

Results

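Cell cycle and proliferation genes were followed in the cortex of young mice given CBE, an inhibitor of the lysosomal enzyme that breaks down glucosylceramide. A list of 38 gene symbols defined the members. A symbol counted as measured where the platform annotation gave a probe set that symbol alone, and the probe set of highest mean was used where there was more than 1. On that rule 36 of the 38 were measured, among 22180 genes with 1 symbol. Ccnb1 had no probe set of its own, and Ccne2 appeared only on a probe set that carried a second symbol, so both were not analysed here. Rrm2 alone had more than 1 such probe set to choose from. Further probe sets that carried several symbols were left out for Top2a (2), Mcm7 (2), Nusap1 (1) and Tyms (1).

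The 24 arrays held cortical RNA from male mice aged 18 days, in 8 groups of 3. The strains were SV129, FVB, C57 (C57BL/6JOlaHsd) and C3H, and within each strain 3 mice received CBE at 25 mg/kg per day by intraperitoneal injection and 3 received phosphate-buffered saline (PBS). Injections ran from postnatal day 8 to day 18 in both arms, so the controls share the injections and the age. The labels call the CBE mice a model of neuronopathic Gaucher disease, a lysosomal disorder of the brain, and the PBS mice healthy controls. CBE gives a chemical model, with the enzyme blocked in every cell the compound reaches rather than mutated, and 1 dose was used. The labels do not say whether mice of a group shared a litter, so p-values measure the spread between these arrays.

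Dividing cells switch on the members in sequence. Cyclin D and cyclin E drive the exit from G1, the MCM helicase, the PCNA clamp and the enzymes of nucleotide supply serve DNA replication, and cyclin B with CDK1, the Aurora and Polo kinases, kinesins and kinetochore proteins carry out mitosis. In the cortex at this age most neurons have left the cell cycle, and the cells known to divide are mainly oligodendrocyte precursors, microglia, endothelial cells and the progenitors of the subventricular zone. In whole tissue, fewer cells of a type and less RNA per cell cannot be told apart.

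Promoters of these genes are known to carry short control elements: the cell cycle genes homology region (CHR), bound by the complexes that silence mitotic genes in resting cells, the CCAAT box, bound by NF-Y, and sites for E2F factors, which act at the G1/S transition. RefSeq promoter windows on build GRCm38.p6, from 250 bases before a gene's start to 50 after it, were at hand for 30 of the 36 measured members. The CHR core TTTGAA, searched on both strands, was present in 16 of 30 windows (53.3%) and in 20.2% of the 27025 windows of all genes. CCAAT was present in 24 of 30 (80%), against 41.1% of all windows. Both motifs stood in 15 of 30 windows (50%), against 8.97% of all. An E2F-type motif, TTTNNCGC, chosen after the data were seen, was present in 6 of 30 (20%), against 5.93% of all. The CHR matches lay with the mitotic genes: 15 of 20 windows of members with a mitotic role held one, against 1 of 10 windows of G1, S phase and replication members, the exception being Mcm2. The E2F-type motif was found in 4 of the 5 helicase windows. A match describes the letters of a window and does not show that a factor binds there.

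The 5 windows below were chosen with the results known. Of the members with a window, Mki67 and Kif11 had the largest excess on array C3H CBE replicate 1 over its replicates, described below. Top2a was added, and Mcm3 and Mcm5 had the smallest p of the helicase over the strains (limma). Each window is printed 5′ to 3′ on the gene's own strand and covers the 250 bases before the start. Capitals mark matches on either strand to the CHR core, the CCAAT box or the E2F-type motif. In the Mcm5 window the E2F-type matches overlap on both strands and form 1 run of capitals, while those of Mcm3 lie after the start, outside the printed stretch.
Mki67 (chr7:135716380-135716629, minus strand): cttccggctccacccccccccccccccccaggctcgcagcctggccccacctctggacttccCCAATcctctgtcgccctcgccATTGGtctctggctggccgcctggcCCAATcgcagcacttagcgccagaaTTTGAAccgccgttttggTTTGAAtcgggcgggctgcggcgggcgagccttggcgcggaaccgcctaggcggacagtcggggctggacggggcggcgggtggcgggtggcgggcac
Kif11 (chr19:37376132-37376381, plus strand): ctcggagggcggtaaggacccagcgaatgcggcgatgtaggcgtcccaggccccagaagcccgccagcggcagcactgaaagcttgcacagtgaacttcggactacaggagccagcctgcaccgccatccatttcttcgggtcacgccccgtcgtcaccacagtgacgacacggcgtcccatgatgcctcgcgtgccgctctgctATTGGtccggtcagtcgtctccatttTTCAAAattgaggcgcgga
Top2a (chr11:99024190-99024439, minus strand): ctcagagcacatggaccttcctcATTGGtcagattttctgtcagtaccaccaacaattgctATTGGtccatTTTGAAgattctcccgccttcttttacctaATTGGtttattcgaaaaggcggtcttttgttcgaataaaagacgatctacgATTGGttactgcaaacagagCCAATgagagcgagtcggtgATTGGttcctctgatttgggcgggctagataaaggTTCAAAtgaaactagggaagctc
Mcm3 (chr1:20820313-20820562, minus strand): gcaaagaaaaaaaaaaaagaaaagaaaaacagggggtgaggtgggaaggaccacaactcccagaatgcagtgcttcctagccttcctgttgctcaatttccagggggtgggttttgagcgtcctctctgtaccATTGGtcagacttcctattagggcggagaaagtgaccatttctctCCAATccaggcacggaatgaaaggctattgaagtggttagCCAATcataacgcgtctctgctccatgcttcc
Mcm5 (chr8:75109259-75109508, plus strand): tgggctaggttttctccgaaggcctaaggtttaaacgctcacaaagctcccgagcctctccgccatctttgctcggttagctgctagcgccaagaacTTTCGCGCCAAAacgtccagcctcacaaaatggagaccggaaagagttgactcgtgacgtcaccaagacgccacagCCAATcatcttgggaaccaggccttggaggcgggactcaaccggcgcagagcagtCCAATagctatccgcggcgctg

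Most members gave a low signal in this tissue. The values are log2 signals, and the median of all probe set values was 4.18 and the upper quartile 6.18. The mean over the 24 arrays lay above that median for 16 members and below it for 20. Those above the upper quartile were Pcna (8.68), the replication clamp that also serves DNA repair, Ccnd1 (7.25), the G1 cyclin D1, Rrm1 (6.80), the large subunit of ribonucleotide reductase, and Ccne1 (6.68), cyclin E1. At the low end were Cdk1 (3.43), the kinase that drives entry into mitosis, Birc5 (3.50), Aurkb (3.55) and Bub1b (3.62). A signal also depends on the probes, so these values place each member on the scale of the arrays and do not rank transcripts, and a difference in a probe set near the bottom of the scale can be compressed.

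Markers of cortical cells were checked against the labelled tissue: the mean log2 signal of 11 neuron markers was 10.7 to 10.9 and that of 9 astrocyte markers 8.81 to 9.09 over the arrays. That of 10 blood leukocyte markers was 3.62 to 3.75, below the median of all probe sets. Array medians ran from 4.14 to 4.22, and no pair of arrays was identical. For the members, 1 array stood apart: C3H CBE replicate 1 gave the highest of all 24 signals for 10 of 36 members, where it did so for 4.78% of all genes. Member results for C3H and for the mean of 4 strains that rest on it are therefore given with and without it. Single genes of the other lists are given with all 24 arrays.

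Averaged over the 36 members, the log2 signal was higher with CBE in C57 and C3H and slightly lower in SV129 and FVB. In C57 the member mean was 4.49, 4.42 and 4.43 on the PBS arrays and 4.52, 4.57 and 4.50 on the CBE arrays, a difference of 0.09. All 3 CBE arrays of C57 lay above all 3 PBS arrays. In C3H it was 4.40, 4.45 and 4.43 with PBS and 4.71, 4.50 and 4.49 with CBE, a difference of 0.14. The groups again did not overlap, but the replicate at 4.71 carried much of the difference, which was 0.06 without it.

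In SV129 the member mean was 4.51, 4.44 and 4.43 with PBS and 4.46, 4.39 and 4.45 with CBE (difference -0.02). In FVB it was 4.48, 4.46 and 4.47 with PBS and 4.42, 4.46 and 4.45 with CBE (difference -0.03). The arms overlapped in SV129, whereas in FVB all 3 CBE arrays lay below the PBS arrays, by a narrow margin. Over the 4 strains the difference averaged 0.04, and 0.02 without C3H CBE replicate 1. The pooled SD of replicates around their group means was 0.05, widened by the C3H CBE group (SD 0.13). The C57 and C3H differences exceeded 1 such SD and the SV129 and FVB differences did not. In FVB, however, the groups had SDs of only 0.01 (PBS) and 0.02 (CBE), so the pooled SD does not show that FVB was unchanged. No p is given for this mean, since the members were chosen with results of these data known.

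**Figure D1:**
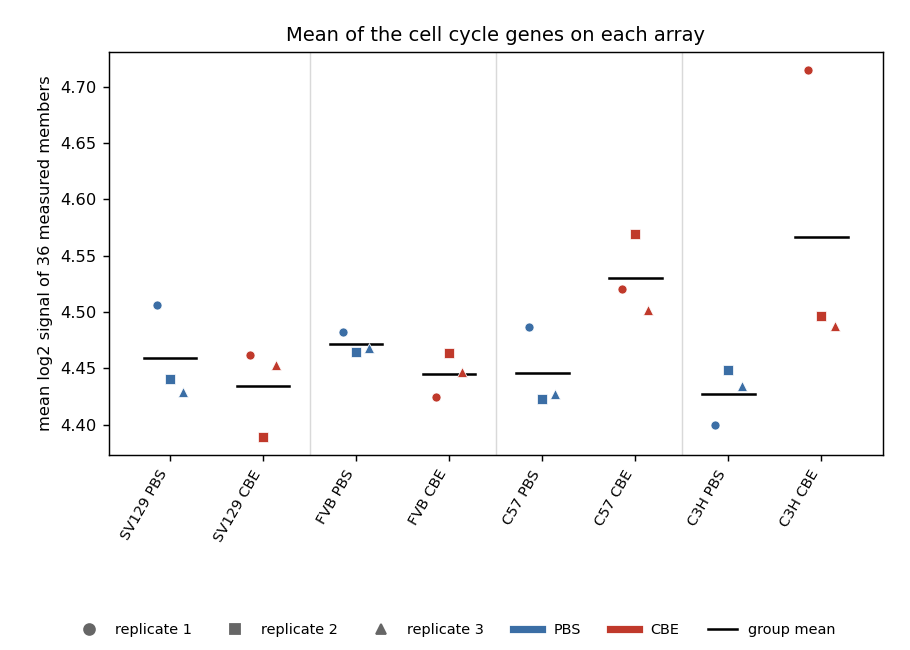
Mean log2 signal of the 36 measured members on each of the 24 arrays (vertical axis), by strain and agent (horizontal axis); symbols give the replicate number, colours the agent and black lines the group mean. The C3H CBE replicate 1 array is the highest at 4.71, and the CBE arrays of C57 (4.50 to 4.57) all lie above its PBS arrays (4.42 to 4.49).

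The spread of single members followed the same split by strain. Counting members with a CBE minus PBS difference above 0, C3H had 29 of 36 and C57 had 26, against 47.4% and 45.1% of all genes. FVB had 16 and SV129 had 13, against 45.4% and 49.3% of all genes. The median difference of the members was 0.12 in C3H, 0.08 in C57, -0.02 in FVB and -0.01 in SV129, beside a median of all genes of -0.0059 in C3H, -0.012 in C57, -0.012 in FVB and -0.0025 in SV129. Leaving out C3H CBE replicate 1 gave 23 members above 0 and a median of 0.03 in C3H, beside 48.4% and -0.0041 for all genes. The differences of the 4 strains come from separate mice, with no control shared between strains.

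No member passed the threshold of adjusted p under 0.05 (limma, Benjamini-Hochberg over 22180 genes) in any strain. Of all genes, 0.325% passed it in C57, 0.135% in FVB, 0.113% in SV129 and 0.0361% in C3H. At an unadjusted p under 0.05, 9 members were higher with CBE in C3H, where 5.02% of all genes passed in either direction. In C57 4 members were higher (5.78% of all genes). Without C3H CBE replicate 1 there were 6 in C57, where 1365 of the 22180 genes passed in either direction. Those added were Ccna2 (limma p 0.0151) and Mki67 (limma p 0.0443). All groups share 1 estimate of the spread, so that array affects p in every strain, while the C57 differences stay the same. In FVB 2 were lower (6.27%), and in SV129 1 was higher and 2 were lower (13%). The 9 of C3H were Mcm5, Top2a, Mki67, Cenpe, Kif11, Aurka, Mcm3, Cenpf and Plk1. Without C3H CBE replicate 1 there were 3 in C3H, namely Mcm5, Cdk1 and Top2a, where 840 of the 22180 genes passed in either direction.

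Groups that did not overlap gave a like picture. In C57 all 3 CBE arrays lay above all 3 PBS arrays for 9 members (Ccna2, Cdk1, Aurka, Plk1, Kif11, Nusap1, Mcm3, Mki67 and Top2a), where 5.82% of all genes did so, and below them for 1, Melk (7.22% of all genes). In C3H this held upward for 8 members (Plk1, Cenpe, Cenpf, Tpx2, Mcm5, Rrm1, Mki67 and Top2a; 4.50% of all genes) and downward for 0 (5.17%). In FVB it held upward for 0 (5.09%) and downward for 3, Plk1, Birc5 and Mcm4 (5.96%). In SV129 it held upward for 0 (6.52%) and downward for 1, Mcm3 (8.99%). With 3 arrays against 3, an exact permutation test of 1 gene cannot give a p below 0.1. Mki67, Top2a and Plk1 stand in both the C57 and the C3H list, and Plk1 also in the downward list of FVB.

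**Figure D2:**
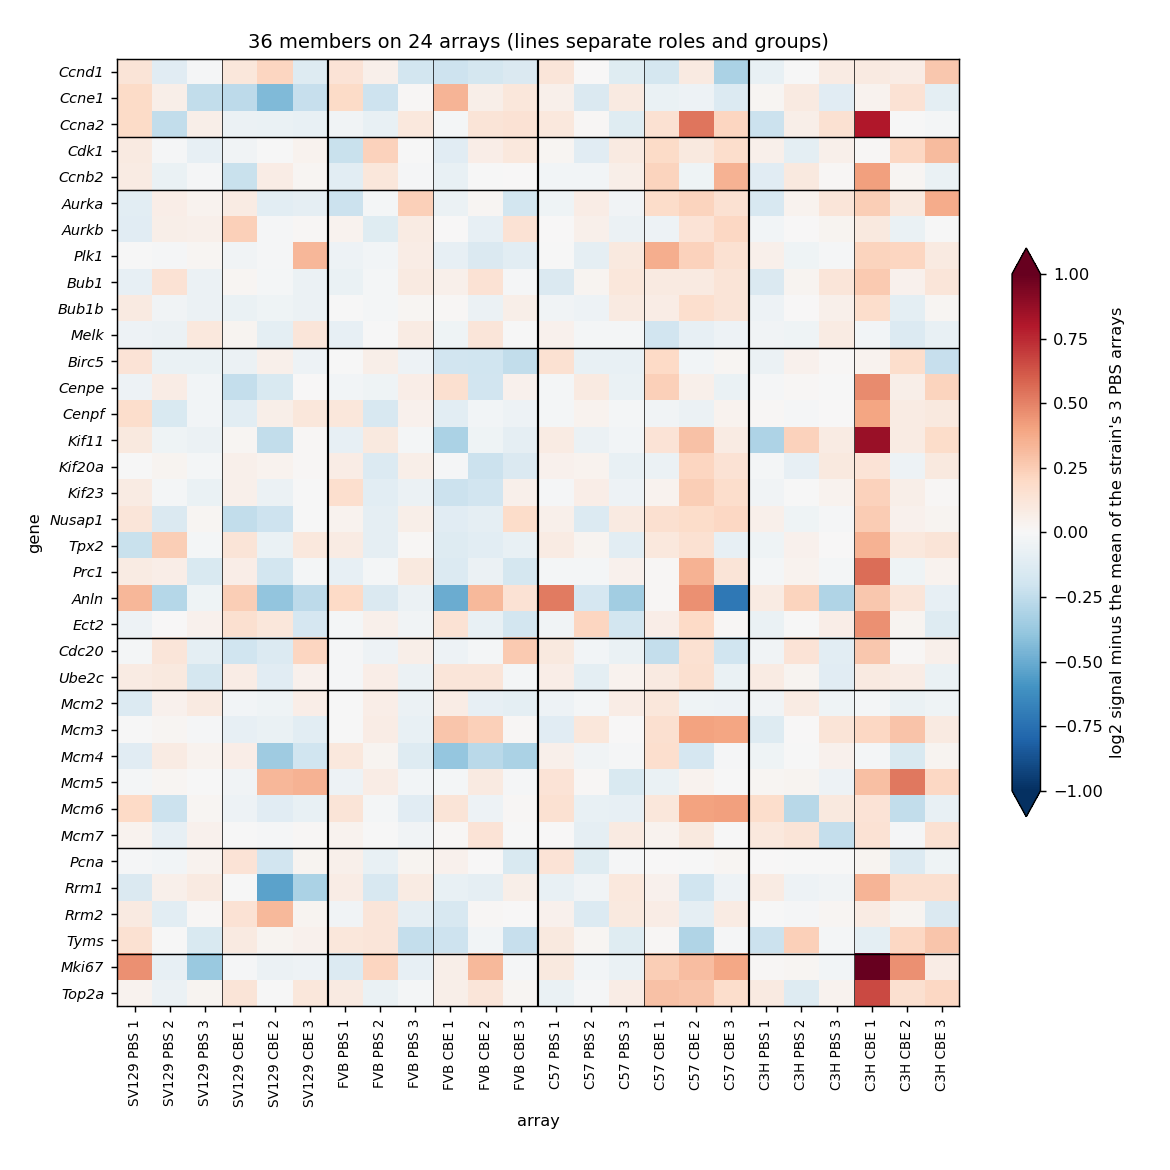
Log2 signal of each of the 36 members (rows, grouped by role) on each of the 24 arrays (columns, in groups of 3) minus the mean of the 3 PBS arrays of the same strain; red is higher and blue lower, and the colour scale ends at 1 in either direction. The C3H CBE replicate 1 column is red for most mitotic members and darkest for Mki67, Kif11 and Ccna2, and the C57 CBE columns of replicates 2 and 3 are red for Mcm3 and Mcm6.

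Averaged over the 4 strains, no member passed the threshold either, where 0.726% of all genes did. The smallest adjusted p was 0.101, for Top2a. At an unadjusted p under 0.05, 5 members were higher (Top2a, Mcm3, Mcm5, Plk1 and Mki67) and 1, Mcm4, was lower, where 10.7% of all genes passed in either direction. The member differences ran from -0.13 for Mcm4 to 0.30 for Mki67. For 35 of the 36 members the 95% interval of the mean difference lay wholly within 0.5 on the log2 scale (1.41-fold) of 0, the exception being Mki67. These intervals bound the array signal, which can be compressed for members near the bottom of the scale, and not the change of the transcript. With all arrays 26 members were above 0, beside 44.4% of all genes. Without C3H CBE replicate 1 no member passed, where 183 of all genes did, and 25 were above 0, beside 45% of all genes. The smallest adjusted p was then 0.0731, again for Top2a.

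**Figure D3:**
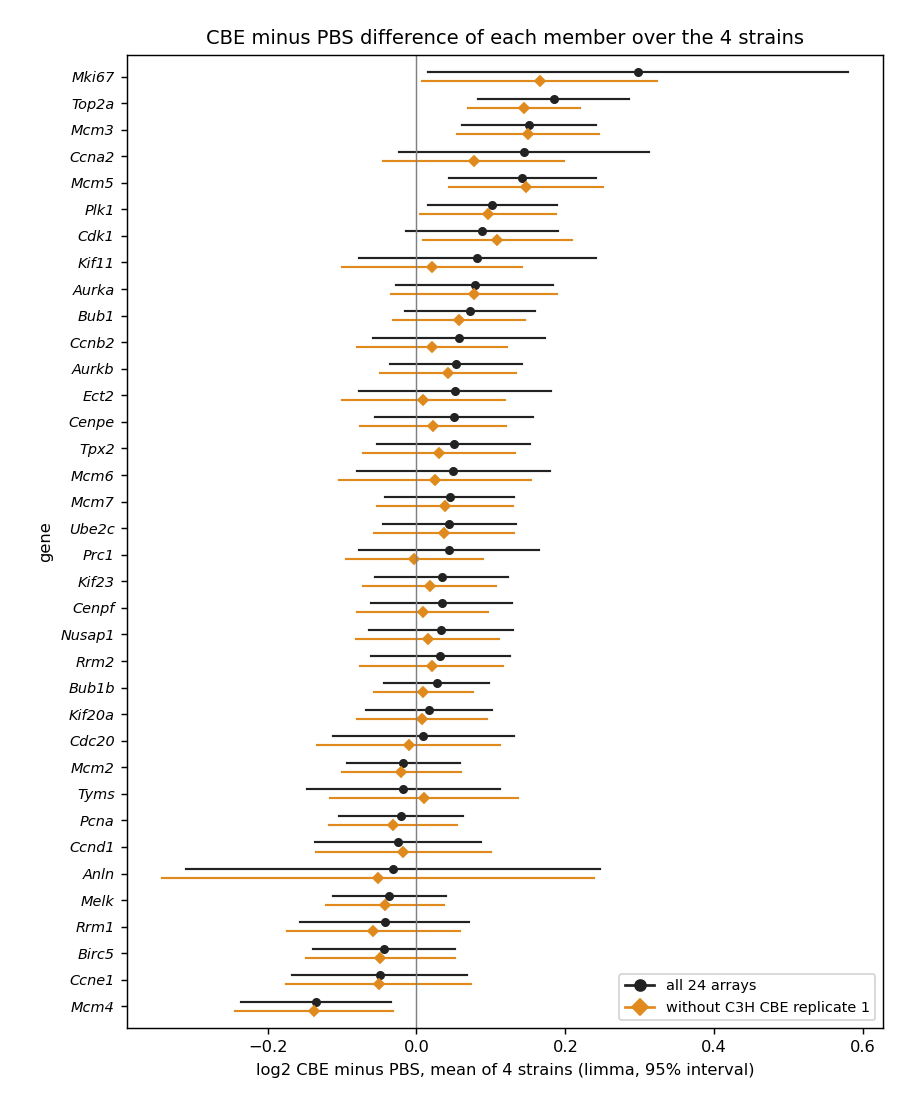
CBE minus PBS difference in log2 signal (horizontal axis), mean of the 4 strains from limma, for the 36 members (vertical axis, sorted by difference); black circles use all 24 arrays, orange diamonds leave out C3H CBE replicate 1, and bars are 95% intervals. The Mki67 difference is 0.30 with all arrays and 0.17 without that array, while those of Mcm3 (0.15 and 0.15) and Mcm5 (0.14 and 0.15) hardly move.

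Mki67 (probe set 17497334) encodes Ki-67, the protein that coats mitotic chromosomes and is the usual marker of cells in cycle. In C3H its log2 signal was 4.28, 4.29 and 4.24 with PBS and 6.12, 4.72 and 4.34 with CBE. In C57 it was 4.34, 4.21 and 4.18 with PBS and 4.49, 4.55 and 4.63 with CBE. All CBE arrays of these strains lay above the PBS arrays, and the array at 6.12 lay far above every other array of the series. In SV129 the signal was 4.93, 4.39 and 4.10 with PBS and 4.46, 4.41 and 4.42 with CBE. FVB gave 4.26, 4.61 and 4.32 with PBS and 4.46, 4.72 and 4.39 with CBE, and in both of these strains the arms overlapped. The difference was 0.79 ± 0.27 (SE) in C3H (adjusted p 0.738) and 0.30 ± 0.14 over the 4 strains (adjusted p 0.437). Without C3H CBE replicate 1 these were 0.26 and 0.17.

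Top2a (probe set 17268909), the topoisomerase that untangles DNA for chromosome segregation, had the smallest p of the members over the 4 strains. In C57 its log2 signal was 3.59, 3.64 and 3.73 with PBS and 3.95, 3.93 and 3.83 with CBE. C3H gave 3.68, 3.46 and 3.63 with PBS and 4.25, 3.75 and 3.79 with CBE. The arms did not overlap in either strain. In SV129 the signal was 3.62, 3.52 and 3.61 with PBS and 3.71, 3.58 and 3.70 with CBE, and in FVB 3.77, 3.62 and 3.66 against 3.75, 3.80 and 3.71, with overlap in both. The mean difference over the strains was 0.18 ± 0.05 (SE; 95% interval 0.08 to 0.29; p 0.00106, adjusted p 0.101 in limma). It was above 0 in all 4 strains, and 0.14 without C3H CBE replicate 1. Leaving out C3H CBE replicate 2 or replicate 3 instead brought its adjusted p to 0.0365 or 0.0482, below the threshold, so this call turns on single arrays of that group; leaving out each of the 24 arrays in turn gave adjusted p from 0.0365 to 0.19.

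**Figure D4:**
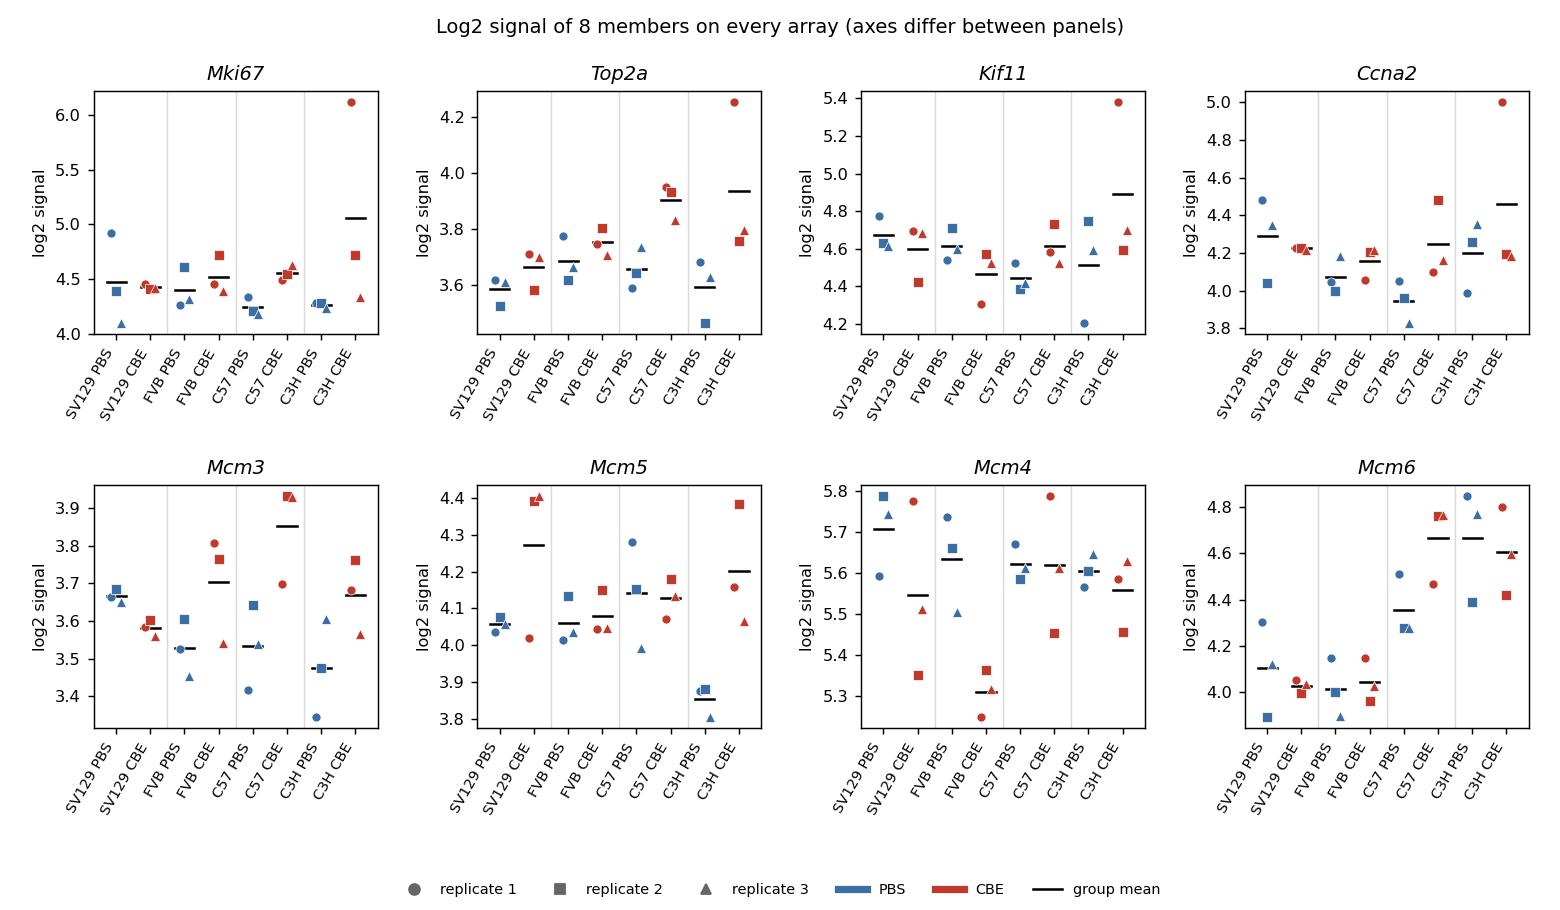
Log2 signal (vertical axes, which differ between panels) of 8 members on every array, by strain and agent; symbols give the replicate number, colours the agent and black lines the group mean. The single high C3H CBE array is visible for Mki67 (6.12), Kif11 (5.38), Ccna2 (5.0) and Top2a (4.25) and absent for Mcm3, Mcm4 and Mcm5. Mcm6 differs between strains, and C57 CBE replicates 2 and 3 (4.76 and 4.77) lie above the C57 PBS arrays (4.28 to 4.51).

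Of the G1 and S cyclins, 3 of 4 listed were measured and none passed. Ccnd1, cyclin D1, which responds to growth signals, had group means of 7.37 and 7.43 (PBS, then CBE) in SV129, 7.12 and 6.95 in FVB, 7.38 and 7.24 in C57, and 7.17 and 7.31 in C3H. Its difference over the strains was -0.02 ± 0.05 (adjusted p 0.93). Ccne1, the cyclin of the G1/S transition, was 7.09, 6.96 and 6.65 in SV129 with PBS and 6.64, 6.46 and 6.67 with CBE. That difference, -0.31 ± 0.11, had the smallest p of the members in SV129 (p 0.0124, adjusted p 0.233), and 1 PBS array lay within the CBE range. Ccna2, cyclin A2 of S phase and G2, was 4.05, 3.96 and 3.83 with PBS and 4.10, 4.48 and 4.16 with CBE in C57. In C3H it was 3.99, 4.26 and 4.35 with PBS and 5.0, 4.19 and 4.18 with CBE, so the other CBE arrays lay within the PBS range, and the C3H difference of 0.26 was -0.01 without replicate 1. Its difference over the strains was 0.14 ± 0.08 (adjusted p 0.549), and 0.08 without that array.

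The kinase of mitotic entry and its measured cyclin gave small differences. Cdk1 was 3.30, 3.17 and 3.37 with PBS and 3.47, 3.38 and 3.46 with CBE in C57. In C3H it was 3.46, 3.32 and 3.46 with PBS and 3.43, 3.62 and 3.73 with CBE. Here C3H CBE replicate 1 was the lowest of its group, unlike for Mki67 or Ccna2. The Cdk1 difference over the strains was 0.09 ± 0.05 (adjusted p 0.544), and 0.11 without that array. Ccnb2, a cyclin B that pairs with CDK1, differed by 0.06 ± 0.06 over the strains (adjusted p 0.784) and by 0.02 without C3H CBE replicate 1, with 4.54 on that array and 4.15 and 4.06 on its replicates. Its C3H difference of 0.12 was -0.02 without it.

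Among the mitotic kinases and checkpoint genes, 5 of 6 had a positive difference over the strains, beside 44.4% of all genes, and none passed. Plk1, the Polo kinase that acts from mitotic entry to cytokinesis, was 4.01, 3.93 and 4.11 with PBS and 4.38, 4.25 and 4.16 with CBE in C57. C3H gave 3.98, 3.89 and 3.92 with PBS and 4.15, 4.14 and 4.02 with CBE, with C3H CBE replicate 1 close to replicate 2. In FVB the order was turned, at 3.98, 4.0 and 4.10 with PBS and 3.95, 3.88 and 3.92 with CBE. SV129 had 4.07, 4.06 and 4.10 with PBS against 4.04, 4.06 and 4.40 with CBE. C57 thus differed by 0.25, C3H by 0.17 (0.15 without replicate 1), SV129 by 0.09 and FVB by -0.11, with 0.10 ± 0.04 over the strains (adjusted p 0.365). Aurka, the Aurora kinase of the spindle poles, differed by 0.08, Bub1 by 0.07, Aurkb by 0.05 and Bub1b by 0.03 over the strains (Bub1b by 0.0093 without C3H CBE replicate 1). Bub1 and Bub1b serve the checkpoint that holds mitosis until chromosomes are attached. Melk, a kinase of cycling progenitors, differed by -0.04, and in C57 its CBE arrays (3.64, 3.74 and 3.77) lay below its PBS arrays (3.87, 3.80 and 3.80).

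The genes of the kinetochore, spindle and cytokinesis were positive for 9 of 11 in C57 and 10 of 11 in C3H, beside 45.1% and 47.4% of all genes. In FVB 1 of 11 and in SV129 4 of 11 were positive, beside 45.4% and 49.3%. Without C3H CBE replicate 1, Birc5 (-0.03), Prc1 (-0.0030) and Ect2 (-0.05) were below 0 in C3H. The mean difference of the 11 genes was 0.15 in C3H and 0.05 there without that array. It was 0.09 in C57, -0.09 in FVB and -0.04 in SV129. Kif11 (probe set 17359020), the kinesin that separates the spindle poles, was 4.21, 4.75 and 4.59 with PBS and 5.38, 4.60 and 4.70 with CBE in C3H. Apart from the array at 5.38, the C3H CBE values lay within the PBS range, and the C3H difference of 0.38 was 0.13 without it. In C57 Kif11 was 4.53, 4.38 and 4.42 with PBS and 4.58, 4.73 and 4.53 with CBE, and over the strains its difference was 0.08 ± 0.08 (adjusted p 0.775), and 0.02 without C3H CBE replicate 1. Birc5, survivin of the chromosomal passenger complex, was 3.58, 3.64 and 3.53 with PBS and 3.39, 3.39 and 3.33 with CBE in FVB, where the arms did not overlap (difference -0.21 ± 0.09, p 0.0306, adjusted p 0.743). In the other strains its differences were between -0.02 and 0.07.

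Cenpe and Cenpf, which link kinetochores to microtubules, had C3H differences of 0.25 and 0.19. Cenpe was 4.10, 4.13 and 4.12 with PBS and 4.59, 4.18 and 4.34 with CBE, and Cenpf was 3.80, 3.78 and 3.79 with PBS and 4.19, 3.88 and 3.89 with CBE. All 3 CBE arrays were above the PBS arrays for both genes, replicate 1 by the most, and without it the differences were 0.14 and 0.09. Tpx2, an activator of Aurora A on the spindle, was 4.44, 4.53 and 4.49 with PBS and 4.84, 4.59 and 4.61 with CBE in C3H (difference 0.19, and 0.12 without replicate 1). Over the 4 strains Tpx2 and Cenpe each differed by 0.05, Cenpf by 0.03, the cytokinesis kinesins Kif23 and Kif20a by 0.03 and 0.02, and Nusap1, a microtubule-binding protein of the spindle, by 0.03. Prc1, which bundles the microtubules of the central spindle, and Ect2, which acts in cytokinesis, differed by 0.04 and 0.05. Without C3H CBE replicate 1 the differences over the strains were nearer 0, at 0.03 for Tpx2, 0.02 for Cenpe, Kif23 and Nusap1, 0.01 for Cenpf and Ect2, 0.0075 for Kif20a and -0.0029 for Prc1. Anln, the cytokinesis scaffold anillin, varied widely within a group, from 4.81 to 5.98 among the C57 CBE arrays, and its difference was -0.03 ± 0.13. Its C57 CBE values of 5.54, 5.98 and 4.81 had the order of 6 oligodendrocyte markers there (mean signal 9.27, 9.66 and 8.59). Anln and these markers ordered the replicates alike in every group except FVB PBS and C3H CBE. Whether Anln followed oligodendrocytes rather than dividing cells was not tested.

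Both members of the anaphase-promoting complex group gave small differences. Cdc20, which activates the complex, differed by 0.01 ± 0.06 over the strains (-0.01 without C3H CBE replicate 1), and Ube2c, the ubiquitin-conjugating enzyme that works with it, by 0.04 ± 0.04.

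The 6 subunits of the MCM helicase, which unwinds DNA at replication forks as 1 complex, did not differ in a single direction. Over the strains Mcm3 differed by 0.15 ± 0.04 (p 0.00213, adjusted p 0.144) and Mcm5 by 0.14 ± 0.05 (adjusted p 0.235). Mcm4 differed by -0.13 ± 0.05 (adjusted p 0.276). Mcm6, Mcm7 and Mcm2 gave 0.05, 0.04 and -0.02. None of these passed, and without C3H CBE replicate 1 Mcm3, Mcm5 and Mcm4 gave 0.15, 0.15 and -0.14, and Mcm6 gave 0.02.

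Mcm3 (probe set 17221633) was 3.42, 3.64 and 3.54 with PBS and 3.70, 3.93 and 3.93 with CBE in C57, without overlap (difference 0.32 ± 0.09, p 0.00135, adjusted p 0.222). In FVB it was 3.53, 3.61 and 3.45 with PBS and 3.81, 3.76 and 3.54 with CBE, and in C3H 3.34, 3.47 and 3.60 against 3.68, 3.76 and 3.56, with overlap in both. In SV129 the order was turned, at 3.66, 3.68 and 3.65 with PBS and 3.58, 3.60 and 3.56 with CBE. Mcm5 (probe set 17502583) was 3.88, 3.88 and 3.81 with PBS and 4.16, 4.38 and 4.07 with CBE in C3H, the smallest p of the members there (difference 0.35 ± 0.09, p 0.00144, adjusted p 0.497). C3H CBE replicate 1 was the middle value of its group, and the difference was 0.37 without it. In SV129 Mcm5 was 4.04, 4.08 and 4.06 with PBS and 4.02, 4.39 and 4.40 with CBE, so 1 CBE array stayed below the PBS range. In C57 and FVB the Mcm5 arms overlapped, at differences of -0.01 and 0.02.

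Mcm4 (probe set 17328432) had the smallest p of the members in FVB, at 5.74, 5.66 and 5.50 with PBS and 5.25, 5.36 and 5.32 with CBE. That difference was -0.32 ± 0.10 (p 0.00296, adjusted p 0.451), without overlap. In the other strains the Mcm4 arms overlapped, with differences of -0.16 in SV129, -0.05 in C3H and -0.0041 in C57. Mcm6 was 4.51, 4.28 and 4.28 with PBS and 4.47, 4.76 and 4.77 with CBE in C57 (difference 0.31 ± 0.12, p 0.0219, adjusted p 0.725), with 1 CBE array inside the PBS range.

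The differences of the clamp and of the genes of nucleotide supply were small over the strains. Pcna group means were 8.66 and 8.65 (PBS, then CBE) in SV129, 8.75 and 8.71 in FVB, 8.71 and 8.71 in C57, and 8.65 and 8.60 in C3H, and its difference over the strains was -0.02 ± 0.04 (adjusted p 0.914). Rrm1 had differences of opposite sign: in SV129 it was 6.90, 7.10 and 7.14 with PBS and 7.04, 6.51 and 6.73 with CBE (difference -0.29 ± 0.11, p 0.0159, adjusted p 0.254). In C3H it was 6.84, 6.71 and 6.72 with PBS and 7.10, 6.92 and 6.91 with CBE, without overlap (difference 0.22 ± 0.11, p 0.0559, adjusted p 1; 0.16 without replicate 1). Rrm2, the small subunit of ribonucleotide reductase, and Tyms, thymidylate synthase, differed by 0.03 and -0.02 over the strains, and by 0.02 and 0.01 without C3H CBE replicate 1.

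Whether the CBE difference itself varied between strains was asked with an F-test of the interaction. No member passed, where 0.00902% of all genes did, and 5 members had an unadjusted p under 0.05 (6.57% of all genes). These were Mcm3 (p 0.025, adjusted p 0.717), Rrm1 (p 0.0298, adjusted p 0.733), Plk1 (p 0.0366, adjusted p 0.74), Mcm5 (p 0.0436, adjusted p 0.752) and Ccne1 (p 0.0444, adjusted p 0.752). The split between C57 and C3H on one side and FVB and SV129 on the other, seen in the member mean, was thus not established for any single member. Without C3H CBE replicate 1, Mcm3 and Plk1 kept an unadjusted p under 0.05, at 0.0311 and 0.0486, where 1524 of all genes had one.

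Strain itself separated 1 member among the PBS mice. Mcm6 (probe set 17226550) was 4.85, 4.39 and 4.77 in C3H and 4.51, 4.28 and 4.28 in C57, and 4.30, 3.89 and 4.12 in SV129 and 4.15, 4.0 and 3.90 in FVB (F-test of 4 PBS groups, p 0.00015, adjusted p 0.00356). The order by group mean was C3H (4.67 ± 0.25, SD, n = 3), C57 (4.36 ± 0.13), SV129 (4.11 ± 0.21) and FVB (4.02 ± 0.12), and neighbours in that order overlapped. The CBE group means were 4.61 in C3H, 4.67 in C57, 4.03 in SV129 and 4.05 in FVB. Genes past this threshold were common, at 13% of all genes, and 26.0% had an unadjusted p under 0.05, as did 5 members (Mcm6, Rrm1, Ccne1, Mcm5 and Ccnd1). Rrm1 was highest in SV129 (7.04 ± 0.13) and 6.69 to 6.79 in the other strains (adjusted p 0.105). Ccne1 was also highest in SV129 (6.90 ± 0.22; adjusted p 0.162), and Mcm5 lowest in C3H (3.85 ± 0.04; adjusted p 0.164).

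The C3H CBE replicate 1 array exceeded both of its replicates for 26 of 36 members (72.2%), against 32.3% of all genes. Its excess over the mean of the other 2 was 1.59 for Mki67, 0.81 for Ccna2, 0.73 for Kif11, 0.56 for Prc1, 0.51 for Ect2, 0.48 for Top2a and 0.44 for Ccnb2. It was -0.25 for Cdk1, -0.34 for Tyms and -0.07 for Mcm5. By role, 20 of 23 mitotic members (Mki67 and Top2a among them) exceeded both replicates (median excess 0.22), against 6 of 13 members of G1, S phase and replication (median excess 0.04). Of the 16 members with TTTGAA in the promoter window 14 did so (median excess 0.24), and of the 14 windows without it 8 did (median excess 0.10). These splits describe 1 array, were made after it was known to stand apart and carry no test. The 10 members for which it was the highest of 24 arrays were Ccna2, Bub1, Cenpe, Cenpf, Kif11, Kif23, Prc1, Ect2, Mki67 and Top2a. The windows shown of Mki67, Kif11 and Top2a carry CHR and CCAAT capitals, but Mki67 and Kif11 were printed because of their excess on this array. Cenpf, Kif23, Prc1 and Ect2 also held both motifs, Bub1 and Cenpe held CCAAT without TTTGAA, and Ccna2 had no window.

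Other genes of the same pathways, taken as lists, had no member past the threshold in any strain, over the strains or in the interaction. This held for 17 of 17 measured genes of G1 and G1/S control, 7 of 7 inhibitors of cyclin-dependent kinases, 29 of 32 genes of origin licensing and DNA replication and 52 of 53 other mitotic genes. At an unadjusted p under 0.05 over the strains, these lists held 2 of 17, 1 of 7, 6 of 29 and 9 of 52 genes, where 10.7% of all genes passed. Median differences over the strains were 0.02 for G1 control, -0.05 for the inhibitors, 0.02 for replication and 0.02 for the other mitotic genes, beside -0.01 for all genes. Mean differences were 0.008, -0.016, 0.023 and 0.014 in the same order. Without C3H CBE replicate 1 they were 0.0013, -0.020, 0.017 and 0.0014. In C3H the mean of the other mitotic genes was 0.046, and -0.0056 without that array. Cdk6, a partner of the D cyclins, differed by 0.21 ± 0.08 (adjusted p 0.28), and Rb1, the retinoblastoma protein that restrains E2F, by -0.10 ± 0.05 (adjusted p 0.425). Cdkn1b, an inhibitor that holds cells in G1, differed by -0.11 ± 0.04 (adjusted p 0.285) and Cdkn1a, a target of p53, by 0.12 ± 0.07 (adjusted p 0.607). Pttg1 (securin) differed by 0.17 ± 0.05 (adjusted p 0.149), the condensin subunit Ncaph by 0.19 ± 0.06 (adjusted p 0.151), Rpa2 by 0.13 ± 0.05 (adjusted p 0.267) and Mcm8 by -0.14 ± 0.05 (adjusted p 0.248). Ncaph was 5.34 on C3H CBE replicate 1 and 4.86 and 4.76 on its replicates. On C3H CBE replicate 1, 36 of the 52 other mitotic genes, 11 of the 17 genes of G1 and G1/S control, 15 of the 29 replication genes and 3 of the 7 inhibitors exceeded both replicates, against 32.3% of all genes. The median excess was 0.11 for the mitotic list, 0.10 for the G1 list, 0.03 for the replication list and -0.0019 for the inhibitors. The mitotic and G1 lists thus lay close together on that array, with the replication list lower.

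Markers of cells that can divide were set beside the members. The mean log2 signal of 13 microglia markers was 6.44, 6.45 and 6.56 with PBS and 7.02, 6.56 and 6.63 with CBE in C3H, so the array that stood apart for the members was also the highest here, and it exceeded both replicates for 10 of 13 microglia markers (median excess 0.49). In C57 the list was 6.53, 6.50 and 6.68 with PBS and 6.71, 6.73 and 6.84 with CBE, without overlap. In FVB it was also higher with CBE, at 6.66, 6.64 and 6.58 against 6.50, 6.48 and 6.35, although the member mean there was not. The lowest C3H CBE value touched the PBS range. SV129 arms overlapped, at 6.14 to 6.49 with PBS and 6.21 to 6.39 with CBE. The mean difference of the microglia list was 0.255 in C3H, and 0.113 without C3H CBE replicate 1. Over the strains it was 0.155, and 0.119 without that array. Csf1r, the receptor for the growth factor of microglia, was the 1 marker of all lists that rose past the threshold (0.29 ± 0.06 over the strains, adjusted p 0.0334). For the defining markers P2ry12 and Tmem119 the arms overlapped in every strain. P2ry12 was 8.49, 8.56 and 8.67 with PBS and 8.53, 8.66 and 8.63 with CBE in C57, and 8.71, 8.70 and 8.92 against 9.24, 8.93 and 8.88 in C3H.

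The 11 endothelial markers averaged 6.77, 6.69 and 6.79 with PBS and 7.08, 6.94 and 6.98 with CBE in C57, without overlap, and overlapped in the other strains. Their mean difference was 0.25 in C57, -0.15 in FVB, 0.05 in C3H (-0.03 without C3H CBE replicate 1) and -0.01 in SV129. At an unadjusted p under 0.05 (limma, either direction) were 3 of 11 in C57 (5.78% of all genes) and 4 of 11 in FVB (6.27%). The 10 oligodendrocyte precursor markers overlapped in every strain (6.44 to 6.80 with PBS and 6.35 to 6.71 with CBE), and C3H CBE replicate 1 exceeded both replicates for 3 of them. The 11 progenitor and neuroblast markers ran from 5.35 to 5.61 with PBS and from 5.34 to 5.48 with CBE, and 2 of 11 exceeded both replicates on that array. Over the strains that list had a median difference of -0.0021 and a mean difference of -0.055. Its marker of smallest p (limma), Sox4, a factor of immature neurons, differed by -0.28 ± 0.07 (adjusted p 0.078), far from the list median. On C3H CBE replicate 1, 0 of 6 oligodendrocyte markers and 0 of 8 markers of meninges and fibroblasts exceeded both replicates (median excess -0.25 and -0.16). In C57 the meningeal list was lower with CBE, at 4.76 to 5.23 against 5.26 to 5.30 with PBS. The 11 neuron markers were also lower with CBE in C57, at 10.81, 10.78 and 10.74 against 10.88, 10.89 and 10.82 with PBS, without overlap (mean difference -0.09). An array signal has no true 0, so absence of a cell type is not read from these lists. Whether the number or state of microglia, endothelial cells, neurons or any other cell type had a part in the member differences was not tested.

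**Figure D5:**
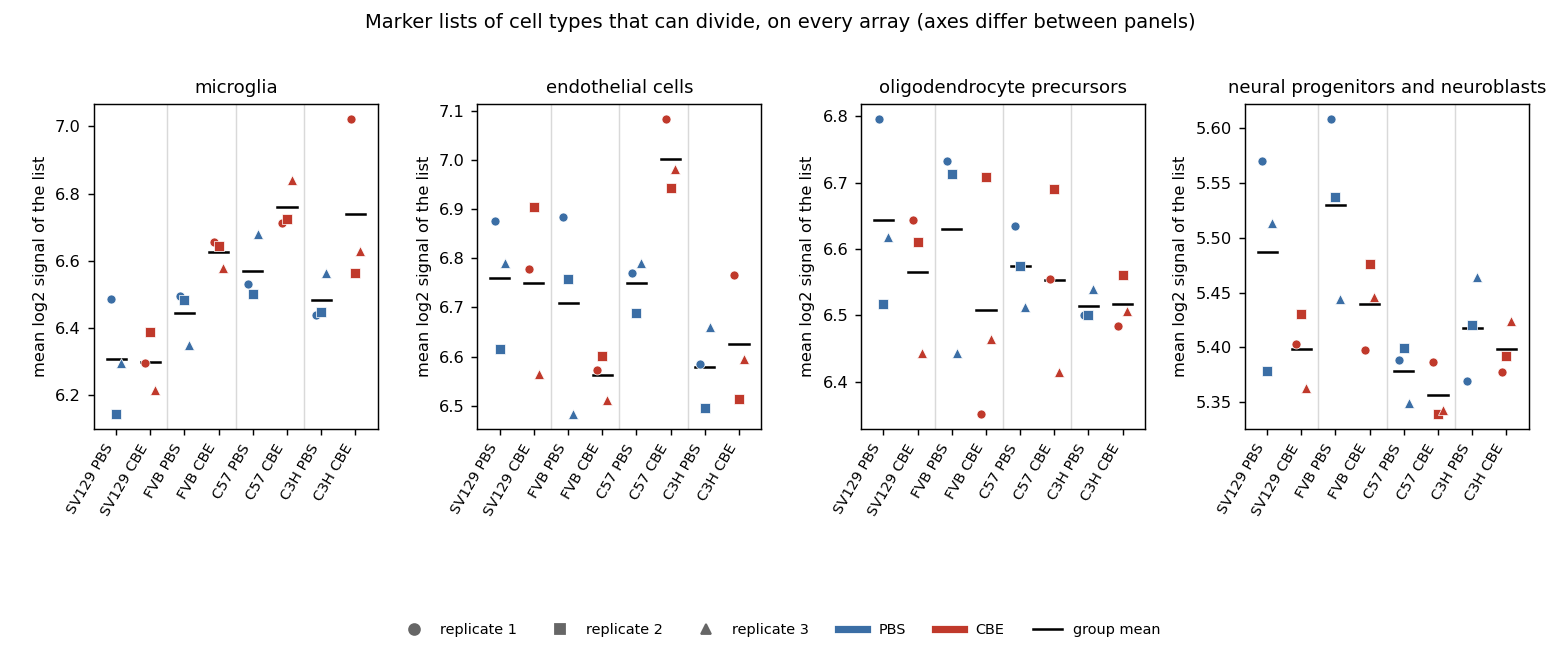
Mean log2 signal (vertical axes, which differ between panels) of marker lists for microglia, endothelial cells, oligodendrocyte precursors and neural progenitors with neuroblasts on every array, by strain and agent; symbols give the replicate number, colours the agent and black lines the group mean. C3H CBE replicate 1 is the highest microglia value (7.02), the C57 CBE arrays are highest for endothelial markers (6.94 to 7.08) and also lie above the C57 PBS arrays for microglia markers, and the arms overlap in every strain for oligodendrocyte precursor markers.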

How the data were processed

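The authors deposited log2 values, 1 for each of 41034 probe sets on each of 24 Affymetrix arrays hybridised with cortical RNA. Partek and RMA are named in the submitters' processing notes; no build or log base is given in the sources used here, and base 2 was inferred from a highest value of 14.09. Scanner files were not used here. The number of arrays limits the precision: the median SE of the members was 0.10 in a strain and 0.05 over the strains.

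The platform annotation named 1 gene for 23521 probe sets, several for 1814 and none for 15699, and only the first kind was used (22180 genes, no filter on dim probe sets). limma 3.58.1 in R 4.3.3 was fitted with a mean for each group over all 24 arrays and moderated variances (16 residual and 5.1 prior degrees of freedom). The 7 two-sided tests were the 4 strain differences, their mean, their equality (F-test) and the equality of the 4 PBS groups (F-test), with Benjamini-Hochberg adjustment over all genes and a threshold of 0.05. The procedure was checked on simulated data.

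The members and lists were chosen with earlier results of these data known. Values are given for members past the threshold, the 8 of smallest p over the strains, 3 per strain, 4 in the interaction and 4 among PBS groups, for Mki67, Top2a, Ccnd1, Pcna and Cdk1, and for the 2 genes of smallest p per pathway list; other members are given more briefly, chosen after their values were seen. Same-numbered CBE and PBS arrays of a strain deviated together with r from -0.19 to 0.20, above 0.1 in 3 of 12 pairs, so the numbers were not taken to pair mice. Alternatives were array centring, quantile normalization, another probe set rule, a filter on dim genes, other variance models, a replicate block, each strain alone and leaving out each array. The other probe set rule, a mean over the probe sets of a symbol, could alter the values of Rrm2 alone. The other 35 members had 1 probe set with their symbol alone.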

Additional observations from a re-analysis of the deposited data

How the results depend on the processing

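Across 1222 recomputed values (member counts, member means and named members under each alternative) none reversed and none lost a call. Of these 1213 stayed on the same side of the threshold or within the replicate spread, 5 moved and 4 passed a threshold they had missed. Some of the 1222 could not move, since leaving out an array of 1 strain does not change the differences of the other strains. The count of 1213 is therefore no measure of robustness. Leaving out each array in turn gave 0 to 1 members called over the 4 strains, the 1 being Top2a without C3H CBE replicate 2 or replicate 3, and 1 to 2 among PBS groups. The second was Ccne1 without SV129 PBS replicate 3 (adjusted p 0.0395) or Rrm1 without SV129 CBE replicate 1 (adjusted p 0.0441). In the single strains and the interaction no member was called under any alternative run. The member mean difference in C3H ran from 0.0644, without C3H CBE replicate 1, to 0.18, and over the strains from 0.025 to 0.053. It ran from 0.066 to 0.11 in C57, from -0.036 to -0.017 in FVB and from -0.039 to -0.00043 in SV129. With the replicate block no call changed: 0 members were called in the CBE comparisons and 1, Mcm6, among PBS groups, and the adjusted p of Top2a over the strains was 0.0708. The filter on dim genes left 16 members among 12291 genes, so it says nothing of the other members. With 3 arrays per group and most members at low signal, small differences could not be resolved. The cause of the shifts without single arrays was not tested.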
